A study of Mus musculus with 24 samples.

Results

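Ncf1, Ncf4, Cyba, Cybb and Rac2 encode subunits of the phagocyte NADPH oxidase, and they are 5 of the 22371 genes in the RNA-seq tables. They form a family chosen by their read counts and RPKM values (read counts scaled by gene length and library size) in 2 libraries, by the peaks and methylation regions within 50 kb of each gene span, and by the length of 1 methylation region at Ncf4, with results of these data known. Their levels and these regions are therefore a description. The cells came from mouse bone marrow, were immortalized by HOXA9, a homeobox factor that holds myeloid progenitors in growth, and carried a vector for IDH1 R132H, a mutant isocitrate dehydrogenase that makes 2-hydroxyglutarate. They were grown in medium with 10% serum, 6 ng/ml IL-3, 10 ng/ml IL-6 and 20 ng/ml SCF, and were left untreated or received vitamin C to 0.345 mM at 0, 24 and 48 h before harvest at 72 h. For untreated cells the labels state no time of harvest. Both conditions had RNA-seq, whole-genome bisulfite sequencing (WGBS) and ChIP-seq of the factors PU.1 and Runx1 and the histone marks H3K4me1, H3K4me3 and H3K27ac, with regions from methylated (MeDIP) and hydroxymethylated (hMeDIP) DNA enrichment, 1 MeDIP list being attached to untreated cells with an IDH1 wild-type vector. Every group held 1 library, so no test between conditions was possible, and each interval given covers counting error only.

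The oxidase moves electrons from NADPH across a membrane to oxygen and so makes superoxide, the start of the respiratory burst by which neutrophils and macrophages attack microbes. Its membrane part, flavocytochrome b558, is a dimer of gp91phox, the catalytic chain encoded by Cybb, and p22phox, the stabilising chain encoded by Cyba. On activation cytosolic subunits, among them p47phox (Ncf1) and p40phox (Ncf4), move to this dimer together with the small GTPase Rac2. Loss of these subunits causes chronic granulomatous disease or a related immunodeficiency in people, and Cybb is a gene that myeloid cells turn on as they mature.

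Total counts were 86804487 untreated and 111453443 with vitamin C, and 10436 genes had at least 1 RPKM in 1 or both libraries, which is the meaning of measured here. Of these genes 2.38% were higher by 2-fold or more with vitamin C and 1.92% were lower, and at 1.5-fold the shares were 6.21% and 6.64%, on the scale of log2(RPKM + 0.5), where the median difference was −0.04. As a check of the cell type, Hoxa9 stood at 3062 and 1487 RPKM and the leukocyte gene Ptprc at 65.1 and 61.2 RPKM, untreated and with vitamin C. Among 9 markers of myeloid progenitors 8 were lower with vitamin C, and their summed level went from 3929 to 2220.2 RPKM. All 7 measured of 8 monocyte and macrophage markers were higher, with a sum of 1381 and then 1888 RPKM, although Mrc1, a macrophage receptor, had 2 and 0 reads. All 6 mast cell and basophil markers were higher as well, their sum being 2112 and 2850.3 RPKM. Markers of maturing neutrophils summed to 27.3 and 26.2 RPKM, of which Lcn2 made up most, and S100a8 and S100a9 had 2 reads each untreated and 0 with vitamin C. Erythroid markers summed to 409 and 516 RPKM, most of it Hbb-bs at 339.9 and 380.0 RPKM, a ratio of 1.12. All 3 measured of 5 were higher, with Tfrc at 67.7 and 131 RPKM and Hba-a1 at 0.135 and 4.12 RPKM. Klf1, by contrast, had 31 and 19 reads. Eosinophil markers summed to 21.7 and 26.7 RPKM, nearly all of it Siglecf, and T and NK cell markers to 26.8 and 26.3 RPKM, nearly all of it Nkg7. The sum over B cell markers was at most 0.212 RPKM and that over fibroblast markers at most 0.0272 RPKM. In bulk RNA, fewer cells of a type and less RNA per cell cannot be told apart, and the part of these marker differences in the results below was not tested.

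For 3 of the 5 genes the RefSeq promoter table (GRCm38.p6, the same assembly as mm10) holds the sequence before the start. The 250 bases before it are shown with words of PU.1, a myeloid ETS factor, and of RUNX factors marked. Listed PU.1 peaks overlapped the Ncf1 window only, and no Runx1 peak overlapped any of the 3. Both strands were searched for GAGGAA (a PU.1 and ETS word), GGAAG (a shorter ETS word, which can overlap the first only in part) and TGTGGT (a RUNX word), and capitals mark each match, an opposite-strand match being read as its reverse complement. The windows lie at chr5:134229626-134229875 for Ncf1, chr8:122432941-122433190 for Cyba and chrX:9469325-9469574 for Cybb, all on the minus strand, and are written 5′ to 3′ towards the start.
Ncf1: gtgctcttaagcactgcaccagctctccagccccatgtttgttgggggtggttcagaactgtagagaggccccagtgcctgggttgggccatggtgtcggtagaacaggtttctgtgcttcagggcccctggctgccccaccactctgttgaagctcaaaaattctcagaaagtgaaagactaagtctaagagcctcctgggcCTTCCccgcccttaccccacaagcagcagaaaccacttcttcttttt
Cyba: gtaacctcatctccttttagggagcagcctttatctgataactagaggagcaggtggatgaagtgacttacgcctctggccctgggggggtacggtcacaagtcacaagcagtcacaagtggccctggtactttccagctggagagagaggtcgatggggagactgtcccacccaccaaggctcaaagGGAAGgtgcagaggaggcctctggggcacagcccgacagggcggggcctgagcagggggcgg
Cybb: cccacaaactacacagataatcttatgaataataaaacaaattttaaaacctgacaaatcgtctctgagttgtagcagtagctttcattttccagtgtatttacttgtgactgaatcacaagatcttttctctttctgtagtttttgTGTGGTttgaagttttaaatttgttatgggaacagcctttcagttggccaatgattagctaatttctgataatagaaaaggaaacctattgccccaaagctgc
None of the 3 windows held GAGGAA, which 23.3% of 32851 promoter windows of this length held. Ncf1 had GGAAG once, on the opposite strand 47 to 43 bases before the start, and Cyba had it once, 62 to 58 bases before the start, while 64.1% of all windows had it. TGTGGT occurred in Cybb alone of the 3, 103 to 98 bases before the start, against 14.0% of all windows. Cyba had 6 CG pairs, the median of all windows, whereas Ncf1 had 2 and Cybb had 1. These matches describe letters and not bound sites, and other forms of ETS and RUNX words were not searched.

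The membrane dimer was unequal at the RNA level. Cyba, encoding p22phox, stood at 368 RPKM untreated (20273 reads) and 354 RPKM with vitamin C (24914 reads), the highest of the 5 genes in both libraries and rank 97 of all genes untreated. Its ratio, vitamin C over untreated, was 0.962 (exact binomial interval at 95%, 0.944 to 0.980), and 86.2% of measured genes differed by more. Cybb, encoding the catalytic gp91phox, had 33 reads untreated and 0 with vitamin C. These are 0.0781 RPKM and 0 RPKM, so Cybb did not pass the 1 RPKM minimum in either library. Per length, Cyba was thus 4709-fold above its partner in untreated cells. At an unchanged level 42.2 Cybb reads would have been counted in the deeper vitamin C library, and against a floor of 3 reads per library (0.00556 RPKM) the gene was at least 14.1-fold lower with vitamin C, taking its 33 untreated reads as exact. With their counting error included, the exact binomial upper limit of the ratio, vitamin C over untreated, was 0.0926. The authors' deposited list of genes lower with vitamin C names Cybb. It holds 221 of the 22371 genes, of which 41 did not reach 1 RPKM in either library. Neither it nor the list of 450 higher genes names another of the 5. Both lists are attached to these same 2 libraries, so they add no separate evidence for Cybb. The difference for Cybb rests on 33 reads in a single library. A long noncoding gene, Gm33784 (chrX:9480573-9484526), overlaps the Cybb span but lies before the Cybb start of the promoter table (chrX:9469324, minus strand). Whether the counting used strand is not given in the sources used here.

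Cybc1, the chaperone also called Eros that gp91phox needs for its stability, was lower with vitamin C, at 30.2 and then 19.2 RPKM, a ratio of 0.636 (0.617 to 0.656). It was the 1 of 4 measured genes among 13 other family members to pass 1.5-fold, and it no longer passed with edgeR's TMM scaling. Hvcn1, the proton channel that balances the charge moved by the oxidase, was 26.0 and 24.1 RPKM, a ratio of 0.929 (0.899 to 0.960). Other catalytic chains were near or at the limit of detection. Nox1 had 23 and 87 reads (0.0960 and 0.282 RPKM) and its organiser Noxo1 39 and 129 reads (0.179 and 0.462 RPKM), both below 1 RPKM. Noxa1 had 0 and 2 reads, Duoxa2 had 1 and 0, and Nox3, Nox4, Duox1, Duox2 and Duoxa1 had 0 in both libraries, which allows at most the level of 3 reads.

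**Figure D1:**
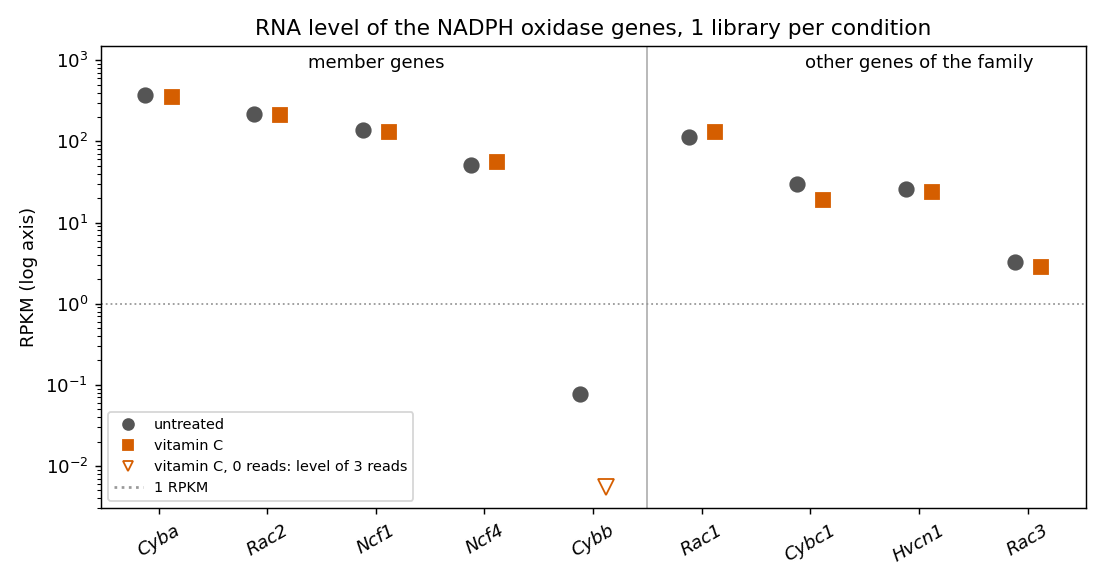
RPKM on a log axis for the 5 member genes and 4 measured genes of the rest of the family, with a circle for the untreated library and a square for the vitamin C library. The pairs of Cyba, Rac2, Ncf1 and Ncf4 almost coincide between 50.9 and 368 RPKM, and Cybb lies below 0.1 RPKM with its 0 reads drawn as an open triangle at the level of 3 reads.

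Both cytosolic subunits of the set had levels above 50 RPKM, and their differences were small. Ncf1, the p47phox organiser that is phosphorylated on activation, stood at 140.0 RPKM (36807 reads) and 129 RPKM (43366 reads), a ratio of 0.922 (0.909 to 0.935). Ncf4, the p40phox subunit that binds phosphatidylinositol 3-phosphate on phagosomes, stood at 50.9 RPKM (7483 reads) and 56.2 RPKM (10548 reads), a ratio of 1.10 (1.07 to 1.14). It was the 1 measured member with a higher level under vitamin C. Ncf1 was above Ncf4 in both libraries. A noncoding gene, LOC115490142, lies within the Ncf1 span, and reads of the 2 cannot be told apart if strand was not used.

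Rac2, the GTPase found mainly in blood cells, stood at 219 RPKM (48328 reads) and 209.7 RPKM (59163 reads), a ratio of 0.958 (0.947 to 0.970). Rac1, its widely expressed relative, was 113 and 129.7 RPKM, a ratio of 1.15 (1.13 to 1.17), so that Rac2 exceeded Rac1 1.93-fold untreated and 1.62-fold with vitamin C. Rac3 was low, at 3.24 and 2.86 RPKM, with an interval that includes an equal level (0.754 to 1.03). Reads shared between these near relatives could be split by the counting, which is not described.

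In log2 terms the differences, vitamin C minus untreated, were −0.12 for Ncf1, 0.14 for Ncf4, −0.06 for Cyba and −0.06 for Rac2. Of the 4 measured members 0 passed 1.5-fold or 2-fold in either direction, beside the shares of all measured genes given above. The intervals of all 4 exclude a ratio of 1 under the authors' scaling, and with no replicate the spread between cultures is unknown. TMM and median-of-ratios scaling each added 0.06 to every log2 value, which takes Cyba to −0.00080 and −0.00092 and Rac2 to −0.01 under both, so the direction for these 2 genes is not settled. The share of measured genes with a larger difference was 71.0% for Ncf1, 65.6% for Ncf4 and 84.7% for Rac2.

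**Figure D2:**
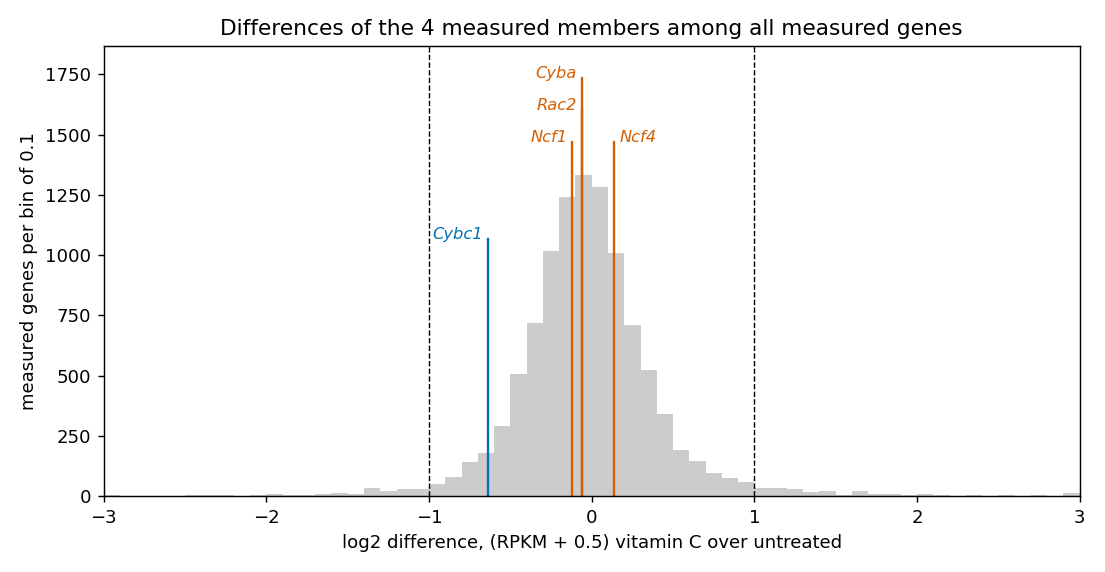
Histogram of the log2 difference in RNA level, vitamin C over untreated, for 10436 measured genes in bins of 0.1 (values beyond ±3 are in the end bins), with dashed lines at 2-fold. The 4 measured members, in orange, fall between −0.12 and 0.14, and Cybc1, in blue, falls at −0.64.

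The order of levels was Cyba, Rac2, Ncf1, Ncf4, Cybb in both libraries. Neighbours in this order were apart by more than counting error, the closest being Rac2 over Ncf1 at 1.56-fold untreated and 1.62-fold with vitamin C. The genes most like each member, by distance in the plane of the 2 log2 levels, were Hnrnpa0 and Bcap31 for Ncf1, Ssr1 and Ap1s1 for Ncf4, Cst7 and Itgb7 for Cyba, and Cd93 and Anxa6 for Rac2. This likeness rests on 2 libraries.

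Proteins that act on the oxidase were described from lists of known genes. Regulators of Rac had a median difference of −0.08 over 15 measured of 17 genes, and 1 passed 1.5-fold. This was Prex1, a Rac exchange factor of neutrophils, at 15.1 and 5.27 RPKM, a ratio of 0.349 (0.338 to 0.361). Vav2 was 3.73 and 2.42 RPKM, the exchange factor Tiam1 33.1 and 45.4 RPKM, and Dock2, the main Rac activator of leukocyte movement, 62.1 and 46.6 RPKM. Among 16 measured of 20 kinases and signalling enzymes upstream of p47phox and p40phox the median was −0.07, with 1 higher and 1 lower by 1.5-fold. Mapk3 (ERK1) was the higher, at 54.6 and 93.7 RPKM, and Pak1 the lower, at 2.16 and 0.438 RPKM. Prkca went from 8.74 to 6.02 RPKM and Plcg2 from 102 to 72.2 RPKM.

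Receptors that trigger or prime the burst spread more widely, with 4 higher and 3 lower by 1.5-fold among 14 measured genes and a median of 0.24. Clec7a of this list was not analysed here. Tlr2, a receptor for bacterial lipoproteins, was 4.47 and 11.0 RPKM, a ratio of 2.47 (2.29 to 2.65). Tnfrsf1a, a TNF receptor, was 64.6 and 26.7 RPKM, a ratio of 0.413 (0.401 to 0.426). Csf3r, the receptor for the neutrophil growth factor G-CSF, was 16.5 and 8.38 RPKM, and Fcgr1, a high-affinity IgG receptor, 3.39 and 1.56 RPKM. The levels of these receptors lay beside the higher monocyte and macrophage markers and the lower progenitor markers given above.

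The supply of NADPH had a median of 0.27 over all 12 genes, with 1 higher and 1 lower by 1.5-fold. Me1, the cytosolic malic enzyme, was 9.13 and 19.4 RPKM, a ratio of 2.12 (2.02 to 2.23), and Idh2, the mitochondrial isocitrate dehydrogenase, 119.7 and 72.6 RPKM, a ratio of 0.607 (0.595 to 0.619). Taldo1 of the pentose phosphate pathway was 221 and 307 RPKM and G6pdx, its entry enzyme, 94.7 and 120.4 RPKM. Enzymes that remove superoxide and peroxide had a median of 0.08 over 18 measured of 19 genes, and 1 passed 1.5-fold. This was Gpx1, a glutathione peroxidase, at 692 and 442 RPKM. Gpx3 was below 1 RPKM, at 64 and 3 reads, a ratio of 0.0366 (0.00737 to 0.112). Txnrd2 was 8.22 and 5.37 RPKM and Gpx4 131 and 91.2 RPKM.

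Heme is the prosthetic group of b558, and genes for its handling had a median of 0.25 over 10 genes, with 2 higher by 1.5-fold and 0 lower, beside the higher erythroid markers given above, whose part in this was not tested. Hmox1, which breaks heme down, was 12.9 and 101 RPKM, a ratio of 7.80 (7.46 to 8.17), so the largest difference of the list was in degradation and not in synthesis. Cpox was 11.0 and 17.0 RPKM, Alas1, the first enzyme of heme synthesis, 45.9 and 68.8 RPKM, and Uros 4.60 and 6.40 RPKM. Factors known to regulate oxidase genes had a median of −0.30 over 17 measured of 20 genes, with 1 higher and 4 lower by 1.5-fold. Irf8, a monocyte factor that can bind the Cybb promoter, was 8.58 and 2.58 RPKM, a ratio of 0.301 (0.285 to 0.319). Gata1, an erythroid and mast cell factor, was 1.06 and 4.21 RPKM, a ratio of 3.98 (3.40 to 4.68). Hoxa9 had a ratio of 0.486 (0.484 to 0.488), and the reads of the vector and of the mouse gene cannot be told apart here. Meis1 was 18.3 and 10.0 RPKM. Spi1, the gene of PU.1, was 105 and 83.0 RPKM, a ratio of 0.789 (0.774 to 0.804).

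**Figure D3:**
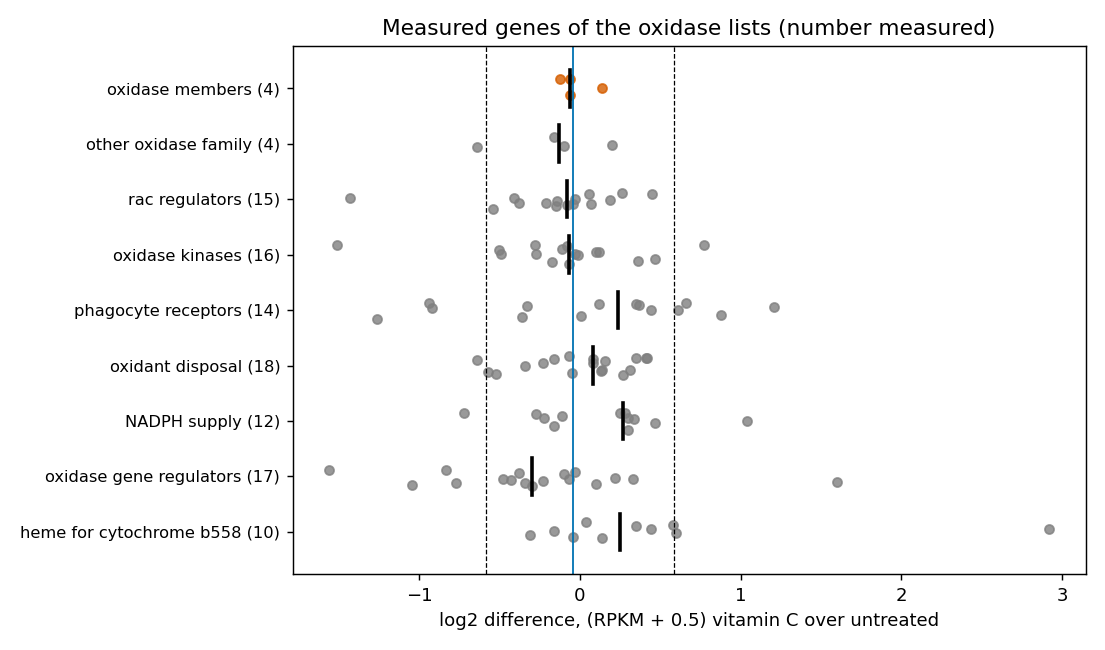
Log2 difference in RNA level, vitamin C over untreated, for each measured gene (points) of the member set and 8 related lists, with list medians as black bars, the median of all measured genes as a blue line and dashed lines at 1.5-fold. The members and the Rac regulators centre near 0, and the points of the receptor and regulator lists are spread on both sides.

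Listed histone peaks were found at 4 of the 5 genes. Cyba, Ncf1, Ncf4 and Rac2 had between 25 and 37 listed H3K4me1, H3K4me3 and H3K27ac peaks within 50 kb in the untreated libraries, and between 21 and 26 with vitamin C. Cybb had 0 in both, which held for 12.7% of protein-coding genes and for 36.9% of those on chromosome X. A list without a peak gives no level for the mark there. Histone peaks come with a p or q value from the authors, and PU.1 and Runx1 peaks with an undefined score, and these values are used only within a list.

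At the starts of the 4 expressed genes H3K4me3 and H3K27ac peaks were listed in both libraries, H3K4me3 being the mark of active promoters and H3K27ac of active promoters and enhancers. Of all protein-coding gene starts with a listed promoter, 55.8% untreated and 56.0% with vitamin C were within 1 kb of an H3K4me3 peak. For H3K27ac these shares were 47.1% and 46.7%. The H3K4me3 peak over the Ncf4 start reached from 293 bases before to 5169 bases after it untreated, and to 5057 bases with vitamin C. At Rac2 it reached from 496 bases before to 2469 after, and from 464 before to 2738 after with vitamin C. At Cyba it reached from 525 before to 1687 after, and from 487 before to 1728 after. At Ncf1 an untreated peak of 4619 bp over the start corresponded to separate peaks of 1108 and 3194 bp with vitamin C. Near the 5 genes 10.2% of 49 untreated H3K4me3 peaks had no overlapping vitamin C peak (9.53% over the whole list), and 5.13% of 39 H3K27ac peaks had none (13.4%). In the other direction 4.35% of 46 H3K4me3 peaks (14.3%) and 3.03% of 33 H3K27ac peaks (11.2%) had no untreated counterpart. These shares rest on 5, 2, 2 and 1 peaks in that order, and for H3K4me3 untreated the share was 0 in the gene spans and 2.04% when peaks within 1 kb counted as shared.

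The strongest H3K27ac peak near any of the genes, in both libraries, was inside Ncf4 about 13 kb after its start, at chr15:78257175-78259050 untreated and chr15:78257216-78259038 with vitamin C. It ranked in the top 1.66% and 0.756% of its lists. H3K4me1, H3K4me3 and PU.1 peaks were listed at the same place in both libraries. For H3K4me3 the strongest untreated peak was chr8:122443575-122445414, before Cyba, and the strongest vitamin C peak was chr15:78298934-78307089, over Csf2rb2, the neighbour of Ncf4 that encodes an IL-3 receptor chain. Csf2rb2 itself was 159.9 and 253 RPKM, a ratio of 1.58 (1.57 to 1.60), the highest ratio among measured genes within 50 kb of a member.

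H3K4me1, a mark of enhancers and of the flanks of promoters, differed more between its lists than the other histone marks did. Near the 5 genes 31 peaks were listed untreated and 19 with vitamin C. Of the untreated peaks 61.3% had no overlapping vitamin C peak, close to the 58.9% of the whole list, and of the vitamin C peaks 21.1% had no untreated one, against 42.5%. The second share rests on 4 of 19 peaks. It varied with the setting, at 66.7% within 10 kb and 50.0% in the gene spans, where few of these peaks lie. With both lists cut to the peaks stronger than their median it was 55.6%. That cut also takes away weaker untreated peaks that had served as counterparts. Ncf1 went from 12 peaks (47792 bp) to 4 (8825 bp), and the 4 were all shared. The 9408 bp untreated peak that ends 8 bases before the Ncf1 start, chr5:134229633-134239040, had no counterpart. Ncf4 went from 5 peaks (63118 bp) to 3 (3730 bp), without counterparts for the untreated domains of 24619 and 33089 bp that lie over and beyond the Csf2rb2 side of the gene. Cyba went from 10 peaks to 5, and its 2030 bp untreated peak at the start had no counterpart. Rac2 went the other way, from 4 peaks to 7, and gained a listed peak of 3542 bp before its start, chr15:78572812-78576353, that was absent from the untreated list. Summed over the genes, peak length with vitamin C was 0.333 of that untreated (177103 bp untreated and 58956 bp with vitamin C), against 0.590 for the whole lists (183 and 108 Mb). Peaks were summed at full length and not cut at 50 kb. The untreated domains of 24619 and 33089 bp beside Ncf4, the longer of which runs beyond the window, weigh heavily in the first ratio. The 2 lists also differed in median peak length, 1526 and 1163 bp, and the part of depth or calling in this was not tested.

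Within 50 kb of the 5 genes 47 PU.1 peaks were listed in untreated cells and 30 with vitamin C. The share of all protein-coding genes with an untreated PU.1 peak in that range was not computed here. Having such a peak is thus not shown to be particular to the members. Among protein-coding genes without a histone peak within 50 kb the share was 63.5%. The whole lists hold 61611 and 23522 peaks. Near the genes 18 of the 47 untreated peaks, 38.3%, had no vitamin C counterpart, against 63.9% of the whole list, and 0 of 30 vitamin C peaks lacked an untreated counterpart, against 4.83%. The exact intervals for these shares, which treat peaks as independent, were 24.5 to 53.6% and 0 to 11.6%. The peaks cluster at 5 genes that were chosen with these peaks known, so the intervals are no test against the whole lists. By gene the numbers were 9 and 9 for Ncf1, 14 and 9 for Ncf4, 7 and 3 for Cyba, 5 and 2 for Cybb, and 12 and 7 for Rac2. At Ncf1 8 of the 9 untreated peaks had a counterpart, and at Ncf4 9 of 14.

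At the starts the PU.1 peaks differed by gene. The Ncf1 peak covered the start and the whole promoter window printed above in both libraries, from 376 bases before to 222 after untreated, and from 311 before to 166 after with vitamin C. It had the highest score of all untreated PU.1 peaks near the 5 genes, 147, in the top 1.26% of its list, and a score of 90.7 in the vitamin C list, in the top 2.12%. The highest vitamin C score, 114, belonged to the peak chr5:134258307-134258780, inside Gtf2i before Ncf1. At Ncf4 a peak from 337 to 1010 bases after the start (score 98.6) had a vitamin C counterpart from 393 to 884 bases (score 32.1). Rac2 had a peak from 825 to 1261 bases after the start untreated, with a counterpart from 807 to 1146 bases with vitamin C, and a weaker untreated peak over the start itself that had no counterpart. The Cyba start had only a weak untreated peak of 192 bp, score 3.25, at 90.2% of its list counted from the top, and it was not listed with vitamin C. Within the gene a stronger Cyba peak, chr8:122429956-122430888, was 933 bp long with a score of 137 untreated and 360 bp long with a score of 44.6 with vitamin C. The printed windows of Cyba and Cybb lay under no PU.1 peak. Of all protein-coding gene starts with a listed promoter 23.9% were within 1 kb of an untreated PU.1 peak and 10.6% within 1 kb of a vitamin C one.

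Cybb combined PU.1 peaks with no histone peak. The untreated list held 5 of them, at chrX:9393124-9393414, chrX:9429527-9429891, chrX:9444146-9444337, chrX:9505384-9505742 and chrX:9523103-9523361, with scores from 2.48 to 23.7. None was within 1 kb of the start used here, which is that of the promoter table and lies inside the gene span. The last 2 had counterparts with vitamin C, with scores of 7.39 and 2.42. Among protein-coding genes without a histone peak within 50 kb, 63.5% had an untreated PU.1 peak in that range. Runx1 peaks were few, 3 untreated and 5 with vitamin C, at Ncf1, Cyba and, with vitamin C, Rac2, and 0 at Ncf4 and Cybb. None of them lay at a member's start. Of all protein-coding gene starts with a listed promoter 13.6% were within 1 kb of an untreated Runx1 peak. For vitamin C Runx1 peaks this share was 23.7%. All 3 untreated Runx1 peaks near the members had a vitamin C counterpart, which 18.2% of the untreated list lacked. Of the 5 vitamin C peaks 2 (40.0%, against 49.3% of the list) had no untreated counterpart.

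**Figure D4:**
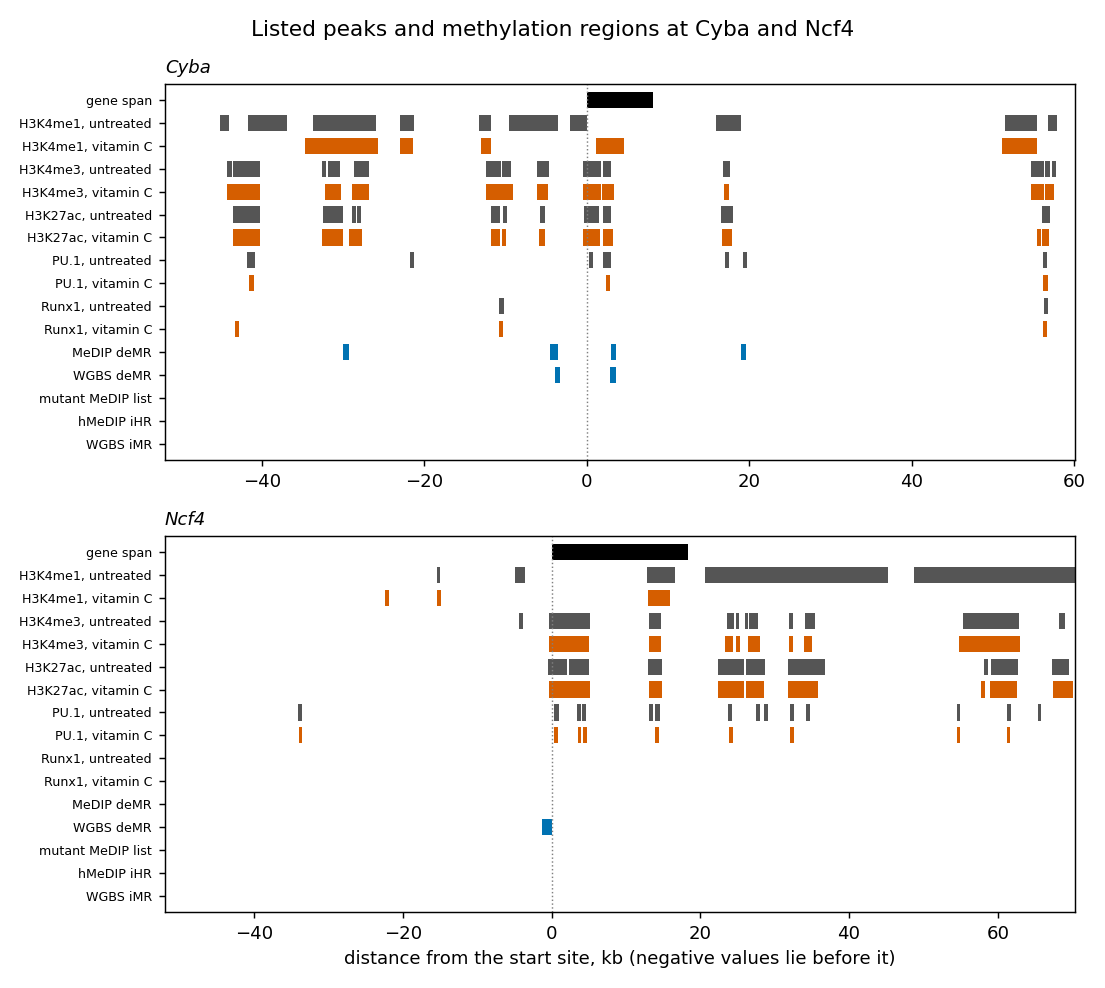
Gene span (black), listed peaks untreated (grey) and with vitamin C (orange), and methylation regions (blue) around Cyba and Ncf4, against distance from the start site in kb, with intervals under 0.5 kb (peaks) or 0.7 kb (regions) drawn at that length. At Cyba the MeDIP and WGBS deMRs meet at 2 places, 1 on each side of the start, and at Ncf4 the single WGBS deMR ends at the start.

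Methylation regions are known here by position and by the authors' tags, which the labels do not define. Regions tagged deMR come from MeDIP, attached to untreated IDH1 R132H cells, and from WGBS, attached to cells with vitamin C. Regions tagged iMR or iHR and a MeDIP list that carries the tags mutant and iMR but is attached to untreated wild-type cells (the mutant MeDIP list) complete the set. Neither the direction of change nor the libraries compared are given in the sources used here, and no methylation level is attached. Around the members lay 9 MeDIP deMRs (20.0 per Mb of window, against 2.74 around all protein-coding genes) and 7 WGBS deMRs (11.6 against 4.09). The other lists gave 2 regions of the mutant MeDIP list (4.45 against 3.03 per Mb), 1 iHR (2.22 against 4.02), 1 WGBS iMR (1.66 against 3.44) and 0 MeDIP iMRs (0 against 1.99). Of protein-coding genes 29.7% had a MeDIP deMR and 36.4% a WGBS deMR within 50 kb, while 3 of the 4 members on chromosomes these MeDIP lists cover and 4 of all 5 members did. For the mutant MeDIP list, MeDIP iMRs, iHRs and WGBS iMRs these background shares were 32.9%, 23.2%, 39.2% and 32.5%, and the members with a region were 1, 0, 1 and 1. Cybb had none, and the MeDIP and hMeDIP lists hold no region on chromosome X. The only WGBS deMR of Ncf4 is the region by which it was chosen. That region enters the count of 7 WGBS deMRs, the 11.6 per Mb and the 4 of 5 members. The members were chosen with all these regions known, so the counts are no test against the background.

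Ncf4 had 1 region, and it is the longest of the 6496 WGBS deMRs, the fact by which it was chosen. It covers 1255 bp at chr15:78242912-78244166, from 1252 bases before the Ncf4 start to 2 bases after it, so that only 3 of its bases lie in the gene span. The next in length covers 1109 bp. The H3K4me3 peak over the start overlapped its last 296 bases in both libraries and the H3K27ac peak its last 439 bases untreated and 401 with vitamin C. The nearest PU.1 peak began 335 bases after its end untreated and 391 bases after it with vitamin C. No H3K4me1 peak overlapped it, the nearest being 2339 bp away untreated and 12922 bp with vitamin C.

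Cyba had 4 MeDIP and 2 WGBS deMRs, and both WGBS deMRs overlapped a MeDIP deMR, which 2.74% of all WGBS deMRs did. The first, chr8:122429840-122430096, lies inside the gene, 2844 to 3100 bases after the start. It shares 161 bp with the MeDIP deMR chr8:122429501-122430000 and 141 bp with the untreated PU.1 peak. The shorter vitamin C PU.1 peak begins 140 bp beyond it. The H3K27ac peak there covered 88 of its 257 bases untreated and all 257 with vitamin C. An H3K4me1 peak covered the place in the vitamin C list only. The second, chr8:122436822-122436907, lies before the start within Mvd, an enzyme gene of sterol synthesis, inside the MeDIP deMR chr8:122436501-122437500 and under an untreated H3K4me1 peak. Mvd was 64.8 and 57.5 RPKM. The remaining MeDIP deMRs were chr8:122413501-122414000 in Zc3h18, which holds an untreated PU.1 peak of 192 bp without a counterpart, and chr8:122462501-122463000, in no gene.

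Rac2 had 3 MeDIP deMRs, 3 WGBS deMRs and 1 WGBS iMR, none overlapping another. The MeDIP deMR chr15:78565501-78566000 lies inside the gene and overlaps an untreated H3K4me3 peak. Those at chr15:78544001-78545000 in Sstr3 and chr15:78592001-78592500 in no gene lie on either side, the latter over an untreated PU.1 peak without a counterpart. The WGBS deMRs were chr15:78510977-78511221 in Il2rb, and chr15:78606206-78606379 and chr15:78608963-78609023 in Cyth4. The WGBS iMR, chr15:78580176-78580215, is 40 bp long. Cyth4 was 51.5 and 41.5 RPKM, C1qtnf6 13.4 and 13.5 RPKM, and Il2rb and Sstr3 had at most 2 reads. Rac2 and Ncf4 lie on the same chromosome with 296586 bases between them, and their windows do not meet.

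Ncf1 had 2 MeDIP deMRs, both in its neighbour Gtf2i, a general transcription factor gene, at chr5:134257501-134258000 and chr5:134269001-134269500. The second lies within a region of the mutant MeDIP list, chr5:134269001-134270000, and a further region of that list is chr5:134267001-134268000. The iHR chr5:134237501-134239000 also lies at the end of Gtf2i nearest to Ncf1, and overlaps the H3K27ac peaks of both libraries and the untreated H3K4me1 peak that was not listed with vitamin C. The WGBS deMR chr5:134213080-134213200 lies in Gtf2ird2. Gtf2i was 66.0 and 51.1 RPKM, Gtf2ird2 4.80 and 3.76 RPKM and Rcc1l 19.0 and 13.4 RPKM, so the measured neighbours of Ncf1 were all lower with vitamin C. The other measured genes within 50 kb were near Cyba. Zc3h18 was 21.2 and 16.2 RPKM, Rnf166 50.8 and 51.6, Ctu2 9.55 and 8.54, and Piezo1 25.9 and 26.0 RPKM. Snai3 was 0.935 and 0.474 RPKM, Il17c had 5 and 13 reads and Pvalb, near Ncf4, had 0 in both.

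**Figure D5:**
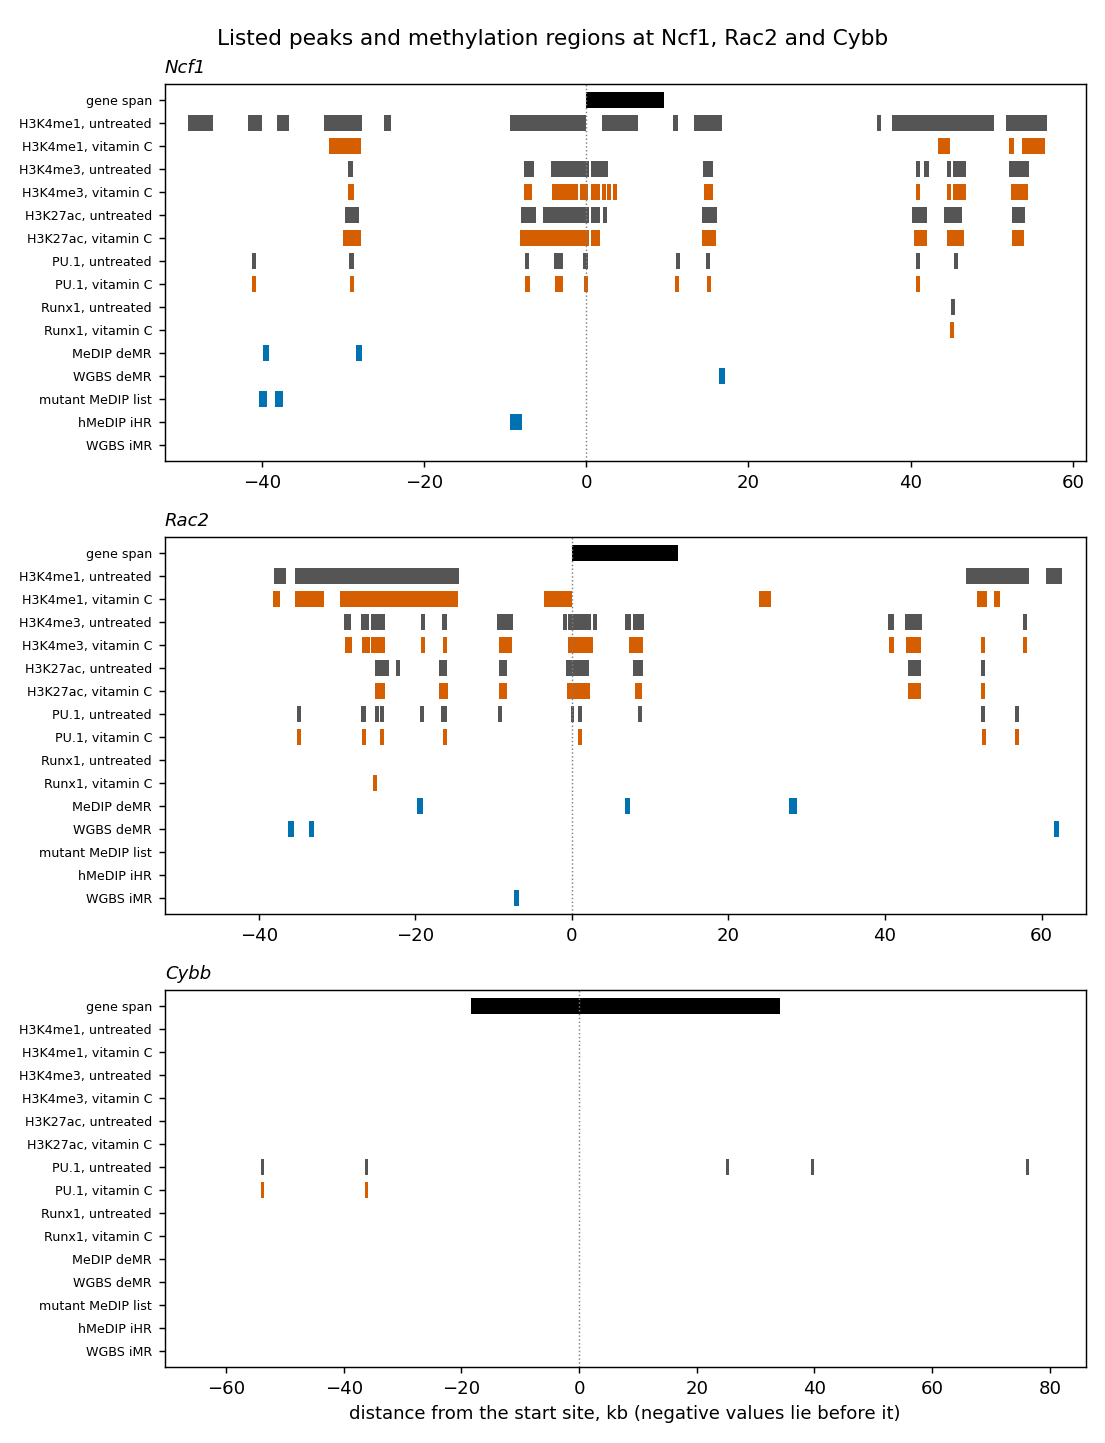
The same map for Ncf1, Rac2 and Cybb, with peaks untreated (grey) and with vitamin C (orange) and methylation regions (blue) against distance from the start site in kb. Untreated H3K4me1 peaks line both sides of Ncf1 where 4 are listed with vitamin C, and Cybb has PU.1 peaks alone.

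Over the 5 genes 6 of the 7 WGBS deMRs overlapped a listed peak, against 64.7% of all WGBS deMRs. Of the 9 MeDIP deMRs 3 overlapped an untreated PU.1 peak and 0 a vitamin C one, against 5.41% and 2.40% of all MeDIP deMRs. The overlap was not particular to PU.1. For H3K4me1 the counts were 5 untreated and 4 with vitamin C (24.4% and 16.9% of all MeDIP deMRs). They were 3 and 2 for H3K4me3 (8.00% and 9.11%), 1 and 3 for H3K27ac (8.42% and 9.82%), and 0 and 0 for Runx1. Of the 7 WGBS deMRs 1 overlapped an untreated PU.1 peak and 0 a vitamin C one, against 14.3% and 5.88%. With counts this small these shares are a description. At the edge of the 50 kb window the last peak inside lay 49846 bp from Ncf4 and the first outside 50082 bp from Ncf1, and the last region inside lay 47948 bp from Rac2 and the first outside 53053 bp from Ncf1.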

How the data were processed

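RNA-seq, ChIP-seq, MeDIP-seq, hMeDIP-seq and WGBS libraries were grouped by the labels into groups of 1, and files of 18 of 24 samples were used. Tools named, without roles, in the submitters' processing notes are MACS2 2.1.0.2, Picard, BWA, Novoalign 3.02.08, CASAVA 1.8.2 and SAMtools (0.1.16, 0.1.8, 0.1.2), and the build is mm10. Which tool counted reads, and whether by strand, was not given in the sources used here. Deposited RNA tables hold a read count and an RPKM per Ensembl gene as the authors made them, and 21611 of 22371 genes matched a symbol. Each histone peak has a p-value or a q-value (which is not stated), and each PU.1 or Runx1 peak a score, both as deposited by the authors. Repeated PU.1 and Runx1 intervals were removed, keeping the highest score. The region lists hold positions only. Some genes of the related lists are not reported here.

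Differences are on the scale of log2(RPKM + 0.5), vitamin C minus untreated, for genes reaching 1 RPKM in either library. A ratio of RPKM has an exact binomial (Clopper-Pearson) interval at 95% on the split of reads, and a count of 0 a floor of 3 reads, both for counting error only. Peaks and regions were matched at an overlap of 1 bp, within 50 kb of a RefSeq gene span (GRCm38.p6). The starts of Ncf1, Cyba and Cybb came from the RefSeq promoter table, and those of Ncf4 and Rac2 from the gene spans and known strands. Named were the 5 members, the measured genes reported of the other oxidase family, the 4 genes of each related list with the largest log2 difference, the 2 genes nearest to each member in level, genes and regions within 50 kb, and peaks at starts, at regions or with the highest value. Marker genes, Spi1, genes with few reads and the remaining peaks given were chosen after their values were seen. The members and lists were chosen with earlier results of these data known. Alternatives were other pseudocounts, filters, scalings (edgeR 4.0.16 TMM factors, median-of-ratios factors, total counts), windows and overlaps. The code (Python 3.11.15, pandas 2.3.3, SciPy 1.17.1, R 4.3.3) was tested on simulated data.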

Additional observations from a re-analysis of the deposited data

How the results depend on the processing

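No paired analysis was possible because every group holds 1 library, and for the same reason no library could be left out. Of 152 alternative values 117 stayed within the counting interval or within 1.5 times the count, and 35 moved. Changes of sign were not counted. With edgeR's TMM and with median-of-ratios scaling the log2 difference was −0.06 under both for Ncf1, 0.20 for Ncf4, −0.01 for Rac2, and −0.00080 and −0.00092 for Cyba. For Cybb, below the minimum level, it was −0.21, −0.83 with a pseudocount of 0.1 RPKM and −0.11 with 1 RPKM. No member passed 1.5-fold in any of these settings except Cybb with the pseudocount of 0.1 RPKM. Of genes past 1.5-fold, Rac regulators had 2 and oxidant disposal 2 with that pseudocount, oxidant disposal 2 without a filter, kinases 1 at a minimum of 5 RPKM, heme genes 1 with a pseudocount of 1 RPKM, and the other oxidase family 0 with TMM scaling, an alternative chosen after seeing the data.

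Peaks without a counterpart changed with the window. For H3K4me1 the share was 90.0% untreated and 66.7% with vitamin C within 10 kb. For vitamin C it was 50.0% in the gene spans and 55.6% with both lists cut to the peaks stronger than their median. For H3K4me3 untreated it was 0 in the gene spans and 2.04% when peaks within 1 kb counted as shared. For H3K27ac it was 0 untreated with both lists cut at their median strength, and 0 with vitamin C within 10 kb, in the gene spans and when peaks within 1 kb counted. Within 10 kb there were 3 MeDIP deMRs, 4 WGBS deMRs and 0 regions of the mutant MeDIP list, and in the gene spans 2, 2 and 0, with 0 iHRs and 0 WGBS iMRs. The word GGAAG in place of GAGGAA matched 2 of 3 promoters. Smaller windows and stronger-peak lists hold fewer peaks and regions by construction, and cutting both lists leaves fewer possible counterparts. Otherwise the cause of these shifts was not tested. The depth of the peak libraries was not analysed here.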
